A study of Homo sapiens with 12 samples.

Results

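The genes described here are 10 growth factors and receptor tyrosine kinases: the epidermal growth factor (EGF) family ligands AREG, EREG, HBEGF and TGFA with their receptor EGFR, the platelet-derived growth factor chains PDGFA and PDGFB, the fibroblast growth factors FGF2 and FGF19, and the insulin-like growth factor receptor IGF1R. They were taken by name from the expression table, which held all 10 among its 22963 gene names. The study sequenced RNA from hepatocellular carcinoma cell lines in which the transcription factor EGR1 had been manipulated. PLC/PRF5, a human hepatoma line, carried either the empty vector or an EGR1 expression construct (3 libraries each). The construct was a lentiviral plasmid in which the CMV promoter drives EGR1, so EGR1 fragments in those libraries can come from the construct. MHCC97H, a human hepatocellular carcinoma line, was either parental (genotype given as WT) or labelled EGR1 knockout (3 libraries each). The parental samples also carry the description Mock, and whether they had a mock treatment is not given. The study made its knockout lines as single clones with LentiCRISPR-v2. It reports that western blots and sequencing of DNA were used to check the knockout in these clones. Which clone was sequenced for RNA is not given in the sources used here. Both lines were grown in DMEM with 10% fetal bovine serum, so growth factors in the serum reached the cells of every group.

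Growth factors are secreted or membrane-anchored proteins that bind receptor tyrosine kinases on the cell surface. Binding makes the receptors dimerize and phosphorylate each other, which starts the RAS-MAPK and PI3K-AKT cascades. EGF family ligands are made as membrane precursors and released by sheddases such as ADAM17, and EGR1 itself is an immediate early gene that growth factor signalling induces in many cells. In liver, EGFR and its ligands are known for their part in regeneration, and FGF19 is the intestinal hormone that restrains bile acid synthesis through FGFR4 and its coreceptor KLB.

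Expression was given as FPKM, in which a gene's fragments are divided by transcript length and by the sequenced total. A change is the difference of mean log2(FPKM + 1) between groups, which understates the change of genes near or below 1 FPKM. A gene was tested when its mean over the 6 libraries compared was at least 1 FPKM, and was called when its Benjamini-Hochberg adjusted p, from limma over all genes tested, was under 0.05. Library FPKM totals ran from 376335 to 437652, and the number of reads behind them is unknown. Of 10 hepatocyte markers, 9 had a mean over 1 FPKM in both PLC/PRF5 groups, 5 in MHCC97H parental and 6 in the libraries labelled knockout, where ALB and AFP were over 1 and APOB was not, the reverse of parental. The summed hepatocyte marker FPKM was 4026 to 4297 in vector, 4790 to 6051 in EGR1, 1459 to 1842 in parental and 2234 to 2666 in labelled knockout libraries. Of 12 markers of other cell types only CD68 and PECAM1, and LUM in MHCC97H, were over 1, and their sum was 32.3 to 63.7 FPKM. The part of these marker levels in the results was not tested. EGR1 was at 1.43 to 2.03 FPKM in vector libraries and 50.2 to 56.3 in EGR1 libraries. In MHCC97H it was at 20.2 to 23.1 FPKM in parental libraries and 32.9 to 50.3 in the libraries labelled knockout, so its mRNA was higher where the label says knockout (log2 change 0.83, adjusted p = 0.00126, and 0.42 with adjusted p = 0.0608 with the GC content and length correction). EGR1 protein was not measured in these data. The EGR1 target and corepressor NAB2 rose from 8.25 ± 0.395 to 27.1 ± 3.48 FPKM (SD, n = 3) with EGR1 overexpression and was at 10.9 ± 1.16 in parental and 10.6 ± 0.0824 in labelled knockout libraries. In MHCC97H it was not called, but with the GC and length correction it was called lower in the labelled knockout libraries (−0.68, adjusted p = 0.000188).

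Because EGR1 binds GC-rich DNA that can overlap sites of the factor SP1, the RefSeq promoter windows of the members (GRCh38.p14, 300 bases, from 250 before to 50 after an annotated start) were searched on both strands for the EGR1 letters GCGGGGGCG and GCGTGGGCG and the SP1 box GGGCGG. Of 35116 such windows in RefSeq, 5.07% held GCGGGGGCG, 0.795% held GCGTGGGCG and 45.0% held GGGCGG. Windows were matched for 8 of the 10 members, all but PDGFB and FGF19. The EGR1 letters were found for PDGFA alone, in 2 of its 4 windows. In the window shown, 2 overlapping copies of GCGGGGGCG began 69 and 63 bases before the start and overlapped a run of SP1 boxes. The windows of AREG and EREG, the most abundant ligands, are shown beside it: the AREG window held 1 SP1 box, on the opposite strand, and the EREG window held none of the 3 motifs. EGFR held 3 SP1 boxes in 1 of its 2 windows, TGFA 4 in 1 of its 2, HBEGF 5, FGF2 3 and IGF1R 2. Capitals mark the EGR1 letters and SP1 boxes on either strand.
PDGFA, minus strand, chr7:519797-520096: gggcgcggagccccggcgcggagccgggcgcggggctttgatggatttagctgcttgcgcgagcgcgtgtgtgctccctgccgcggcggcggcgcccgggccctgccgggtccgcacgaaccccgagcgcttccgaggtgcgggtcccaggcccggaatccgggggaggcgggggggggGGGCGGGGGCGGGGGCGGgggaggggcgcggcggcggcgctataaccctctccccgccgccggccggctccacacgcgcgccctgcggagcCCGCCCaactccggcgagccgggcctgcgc
AREG, plus strand, chr4:74444886-74445185: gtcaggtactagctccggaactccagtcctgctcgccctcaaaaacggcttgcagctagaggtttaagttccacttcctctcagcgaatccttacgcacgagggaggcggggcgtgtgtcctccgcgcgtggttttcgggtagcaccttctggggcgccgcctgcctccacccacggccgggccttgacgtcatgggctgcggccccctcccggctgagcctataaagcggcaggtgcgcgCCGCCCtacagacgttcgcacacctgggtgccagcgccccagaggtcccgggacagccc
EREG, plus strand, chr4:74364895-74365194: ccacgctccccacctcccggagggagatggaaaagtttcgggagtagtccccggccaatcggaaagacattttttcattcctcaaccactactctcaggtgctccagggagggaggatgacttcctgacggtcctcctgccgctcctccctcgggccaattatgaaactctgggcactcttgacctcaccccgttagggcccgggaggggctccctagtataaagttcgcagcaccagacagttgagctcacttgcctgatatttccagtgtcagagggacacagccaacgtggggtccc
A match of letters does not show that EGR1 binds there in these cells.

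Levels of the members spanned from 0 to 97.4 FPKM. In PLC/PRF5 vector libraries AREG, EREG and EGFR stood above 94.3%, 90.9% and 87.3% of all gene names by mean FPKM, whereas FGF2, FGF19 and TGFA were each under 0.1 FPKM on average. The MHCC97H parental libraries had EREG (89.4%) and EGFR (80.3%) in the upper part of the distribution, with AREG lower (68.1%) and FGF19 listed at 0. EREG and EGFR were therefore abundant in both lines, and FGF19 was near or at 0 in all 12 libraries.

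**Figure D1:**
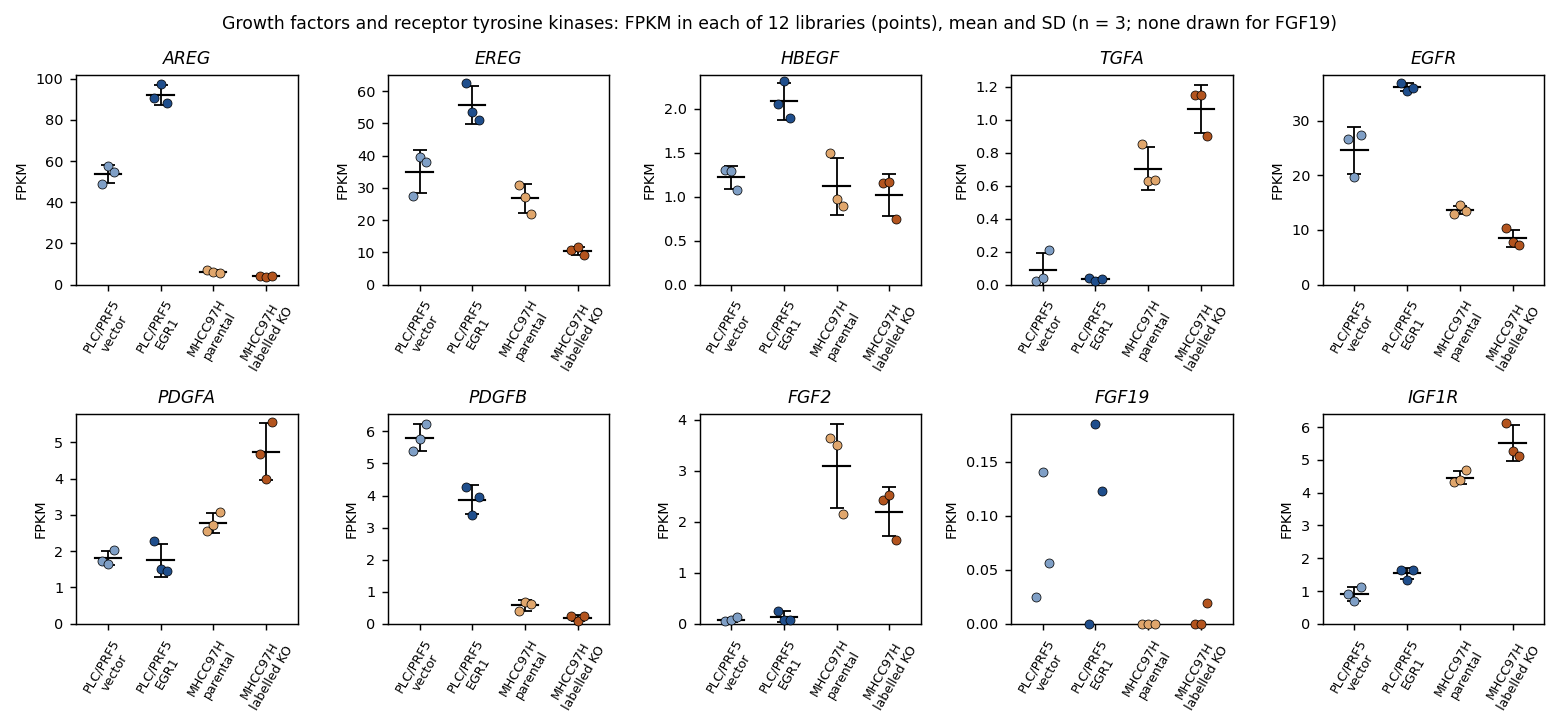
FPKM of each member in each library (points), with the mean (line) and SD (bars, n = 3) of PLC/PRF5 vector, PLC/PRF5 EGR1, MHCC97H parental and MHCC97H labelled knockout libraries. No mean is drawn for FGF19, and each panel has its own vertical axis from 0. AREG, EGFR, PDGFB and IGF1R lie in 4 separate ranges. AREG and EGFR are highest in EGR1 libraries and lowest in labelled knockout libraries, while PDGFA, FGF2, TGFA and IGF1R are higher in MHCC97H.

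With EGR1 overexpression in PLC/PRF5 cells, the EGFR ligands AREG, EREG and HBEGF and the receptors EGFR and IGF1R rose, and PDGFB fell. Of the 10 members 7 were tested, of which 5 were higher, where 19.2% of the 11671 genes tested were called higher, and 1 was lower, where 10.4% were called lower. In those 6 the vector and EGR1 libraries did not overlap, which held for 47.7% of all genes tested. The median change of the 7 was 0.47, beside 0.09 over all genes tested. IGF1R passed the filter on low values only through its EGR1 libraries. The members were chosen with earlier results of these data known, so these counts and medians describe them and nothing more is read. PDGFA was not called, and FGF2, FGF19 and TGFA were under the filter.

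In MHCC97H libraries labelled EGR1 knockout, EREG, EGFR and AREG were lower and PDGFA was higher than in parental libraries. Of the 7 members tested 1 was called higher and 3 lower, where 34.8% and 31.5% of the 11577 genes tested were called. Groups did not overlap for 5 of the 7, close to the 71.8% of all genes tested. The median change of the 7 was −0.35, beside 0.02 over all genes. As the members were chosen with earlier results known, these counts and medians are descriptions only. FGF2, HBEGF and IGF1R were not called. The edit, the choice of a single clone and the CRISPR vector cannot be told apart in this comparison.

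Between the lines, MHCC97H parental libraries had more FGF2, IGF1R and PDGFA and less AREG, PDGFB and EGFR than PLC/PRF5 vector libraries. Of the 8 members tested 3 were called higher and 3 lower, where 38.8% and 40.9% of the 12046 genes tested were called. The same 6 had groups that did not overlap, which held for 81.0% of all genes tested. FGF2 and IGF1R passed the filter only through the parental libraries and PDGFB only through the vector libraries, so these counts describe the members and nothing is read from them. One group was titled parental and described as Mock, and the other carried a vector, so the line, the vector and any mock treatment cannot be told apart. This comparison shares its parental and vector libraries with the other two, so the values of the 3 comparisons are given side by side and were not correlated.

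**Figure D2:**
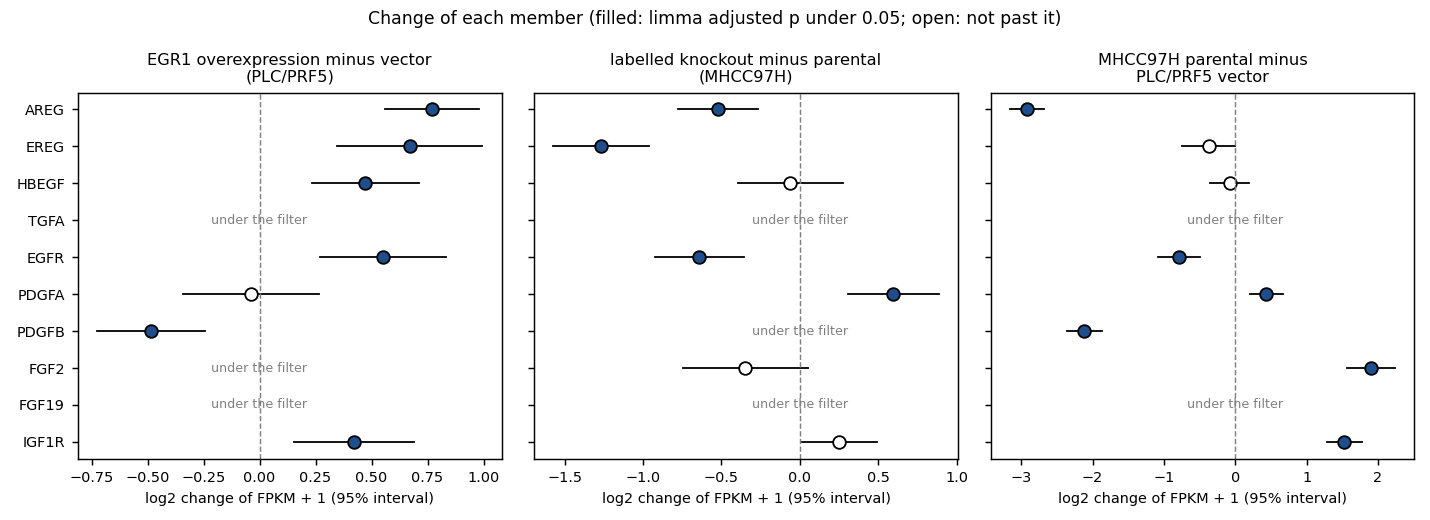
Difference of mean log2(FPKM + 1) for each member in the 3 comparisons, with its 95% interval from limma. Filled points had an adjusted p under 0.05, open points did not, and each panel has its own horizontal scale. AREG, EREG and EGFR lie right of 0 with EGR1 overexpression and left of 0 in the libraries labelled knockout. The share of all genes with this pattern was not counted.

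AREG (amphiregulin), an EGFR ligand, lies on chromosome 4 from 74445134 to 74455009 on the plus strand (GRCh38, GENCODE 29). It was at 48.8, 57.7 and 54.6 FPKM in vector libraries and 90.9, 97.4 and 88.1 in EGR1 libraries. It was at 7.05, 5.87 and 5.78 FPKM in parental libraries and 4.24, 3.64 and 4.20 in labelled knockout libraries. The 4 groups were ordered EGR1, vector, parental, labelled knockout, with no overlap between neighbours. PDGFB and IGF1R also lay in 4 separate ranges, and the share of all genes that do was not counted. Of all genes tested, groups did not overlap for 47.7% with EGR1 overexpression, 71.8% in labelled knockout libraries and 81.0% between the lines. AREG rose 1.71-fold with EGR1 overexpression (log2 change 0.77, SE 0.09, adjusted p = 0.000866). It fell to 0.646 of the parental mean in the labelled knockout libraries (log2 change −0.52, SE 0.11, adjusted p = 0.00327). Both calls held in every alternative run, apart from the requirement of a 2-fold change. Parental MHCC97H libraries had 0.116 of the AREG level of vector libraries (log2 change −2.92, SE 0.10, adjusted p = 2.91e-08).

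EREG (epiregulin), a ligand of EGFR and ERBB4, lies near AREG on chromosome 4, from 74365143 to 74388751 on the plus strand. It was at 27.4, 39.6 and 38.0 FPKM in vector libraries and 62.5, 53.5 and 51.2 in EGR1 libraries, without overlap. It was at 31.0, 27.2 and 21.9 FPKM in parental libraries and 10.7, 11.5 and 9.17 in labelled knockout libraries, again without overlap. EREG rose 1.59-fold with EGR1 overexpression (log2 change 0.67, SE 0.14, adjusted p = 0.00969) and fell to 0.392 of parental in the labelled knockout libraries (log2 change −1.27, SE 0.14, adjusted p = 9.23e-05). This fall was the only change of at least 2-fold among the members tested within a line. The EREG transcript is GC-poor (36.1% GC), and with the GC and length correction both changes kept their call but shrank, to 0.28 (adjusted p = 0.0254) and −0.60 (adjusted p = 3e-04). Vector and parental libraries overlapped in EREG, and their difference of −0.37 was not called (95% interval −0.75 to 0.00, adjusted p = 0.0634). With the same correction that difference became −0.90 (adjusted p = 2.94e-06), and it was also called without vector replicate 1 (−0.53, adjusted p = 0.00935) or without parental replicate 1 (−0.48, adjusted p = 0.035). In 1 fit of all 12 libraries it was called as well (adjusted p = 0.0376).

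HBEGF (heparin-binding EGF-like growth factor), on chromosome 5 from 140332843 to 140346631 on the minus strand, was a low member. It was at 1.30, 1.29 and 1.07 FPKM in vector libraries and 2.05, 2.31 and 1.89 in EGR1 libraries. It rose 1.71-fold with EGR1 overexpression (log2 change 0.47, SE 0.11, adjusted p = 0.0114), with no overlap. The call was lost with quantile normalization (0.33, adjusted p = 0.0534) and without EGR1 replicate 2 (0.42, adjusted p = 0.0555), and with a pseudocount of 0.1 the change was 0.73. In MHCC97H the groups overlapped, at 1.49, 0.969 and 0.894 FPKM in parental and 1.15, 1.17 and 0.748 in labelled knockout libraries (log2 change −0.06, 95% interval −0.40 to 0.27, adjusted p = 0.727). The lines did not differ past the threshold either (−0.08, adjusted p = 0.572).

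TGFA (transforming growth factor alpha), on chromosome 2 from 70447280 to 70554193 on the minus strand, was near 0 in PLC/PRF5 cells, at 0.0218 to 0.209 FPKM over the 6 libraries. In MHCC97H it was at 0.851, 0.625 and 0.631 FPKM in parental libraries and 1.15, 1.15 and 0.898 in labelled knockout libraries. The groups within MHCC97H did not overlap and every MHCC97H library was above every PLC/PRF5 library. TGFA was under the filter in each comparison. In the fit over all genes with FPKM above 0 in at least 1 library, it was called higher in labelled knockout libraries (log2 change 0.28, adjusted p = 0.0456) and higher in parental than in vector libraries (0.65, adjusted p = 0.000756).

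Since FPKM is per length, the 4 ligands can be summed, a measure chosen after their values were seen. The sum was 77.5 to 98.7 FPKM in vector, 141 to 155 in EGR1, 29.2 to 40.4 in parental and 15.0 to 17.5 in labelled knockout libraries, in 4 ranges that did not overlap. AREG made up 58.2% to 62.9% of the sum in vector and 58.4% to 63.5% in EGR1 libraries, in ranges that overlapped. EREG made up 75.0% to 78.5% in parental and 61.1% to 65.9% in labelled knockout libraries. AREG made up 20.8% to 28.0% there. The ratio of AREG to EREG was 1.56 ± 0.191 in vector, 1.66 ± 0.191 in EGR1, 0.235 ± 0.025 in parental and 0.390 ± 0.0712 in labelled knockout libraries (SD, n = 3). In an exact 2-sided permutation test, p for this ratio was 0.6 with EGR1 overexpression and 0.1 in the labelled knockout libraries, and 0.1 is the smallest p that 3 against 3 libraries can give.

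**Figure D3:**
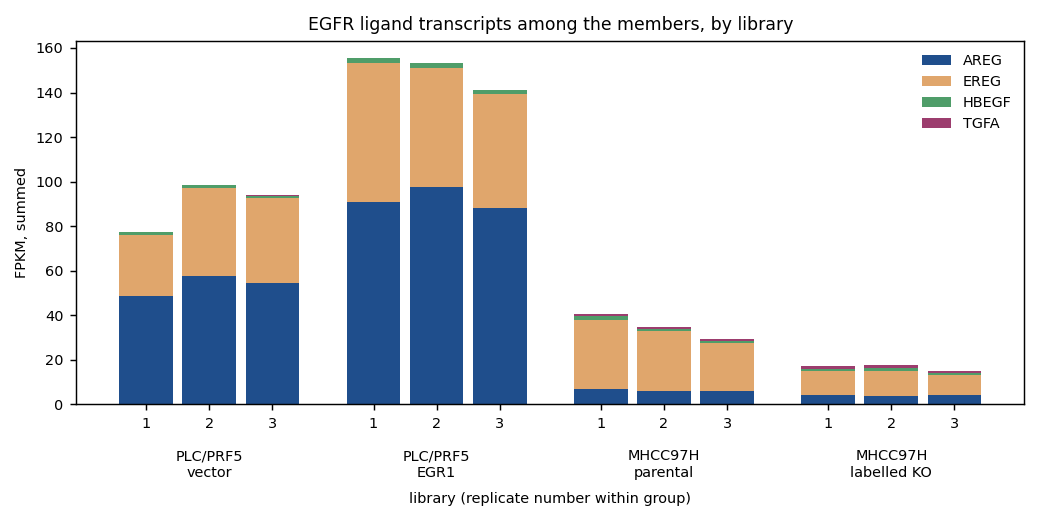
Stacked FPKM of the EGFR ligands AREG, EREG, HBEGF and TGFA in each of the 12 libraries, numbered by replicate within the group. AREG and EREG make up most of each bar, AREG the larger share in PLC/PRF5 and EREG in MHCC97H, and the bars of the 4 groups reach separate ranges.

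EGFR, the receptor of all 4 ligands, lies on chromosome 7 from 55019021 to 55211628 on the plus strand. It was at 26.7, 19.7 and 27.5 FPKM in vector libraries and 37.0, 35.5 and 36.1 in EGR1 libraries. It was at 13.0, 14.5 and 13.5 FPKM in parental libraries and 10.3, 7.86 and 7.28 in labelled knockout libraries. As for AREG, the groups were ordered EGR1, vector, parental, labelled knockout with no overlap. EGFR rose 1.47-fold with EGR1 overexpression (log2 change 0.55, SE 0.12, adjusted p = 0.0118) and fell to 0.621 of parental in the labelled knockout libraries (−0.64, SE 0.13, adjusted p = 0.00205). Parental was below vector (−0.79, SE 0.13, adjusted p = 0.000471). After the GC and length correction these changes were 0.39, −0.49 and −1.07, each still called.

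ERBB2 and ERBB3 were not called higher with EGR1 overexpression or lower in the labelled knockout libraries. ERBB2, the ligandless partner of the family, was at 25.2 ± 2.30 FPKM in vector and 23.8 ± 1.29 in EGR1 libraries (log2 change −0.08, 95% interval −0.29 to 0.13, adjusted p = 0.538). It was higher in labelled knockout than in parental libraries, 7.52 ± 0.478 against 3.79 ± 0.195 FPKM (0.83, adjusted p = 0.000163, and 0.38 with the correction). ERBB3, a neuregulin receptor, was lower with EGR1 overexpression, 28.5 ± 3.22 against 37.0 ± 2.63 FPKM (−0.37, adjusted p = 0.0287), a call that leaving out 1 library ended in 4 of 6 cases. It was higher in labelled knockout libraries, 13.0 ± 1.23 against 9.89 ± 0.269 FPKM (0.36, adjusted p = 0.0097), but not called after scaling to a common total (0.22, adjusted p = 0.1). ERBB4 was listed at 0 in 11 of 12 libraries. Of the 7 other ERBB ligands listed, none was tested in PLC/PRF5. In MHCC97H NRG1, the main ERBB3 ligand, fell from 31.8 ± 1.60 to 13.8 ± 0.903 FPKM (−1.15, adjusted p = 2.81e-05), and BTC was at 0.524 ± 0.171 in parental and 1.54 ± 0.478 in labelled knockout libraries and was called higher, having passed the filter only through the labelled knockout libraries. ADAM17, which sheds AREG, HBEGF and TGFA, was at 7.69 ± 0.499 FPKM in vector and 7.43 ± 0.128 in EGR1 libraries (−0.04, adjusted p = 0.735, but −0.39 with adjusted p = 0.00402 after the GC and length correction). In MHCC97H it was at 17.7 ± 0.766 FPKM in parental and 12.8 ± 1.14 in labelled knockout libraries (−0.44, adjusted p = 0.0035), and after the correction this difference turned to 0.20 (adjusted p = 0.0823).

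PDGFA, a PDGF chain and the member whose promoter windows held the EGR1 letters shown above, lies on chromosome 7 from 497258 to 520296 on the minus strand. It was at 1.72, 1.66 and 2.02 FPKM in vector libraries and 2.28, 1.52 and 1.45 in EGR1 libraries. These overlapped, and the change of −0.04 was not called (95% interval −0.34 to 0.27, adjusted p = 0.85). Mean EGR1 mRNA was 29.3-fold higher in the EGR1 libraries, and whether EGR1 acts on PDGFA was not tested. In MHCC97H it was at 2.55, 2.72 and 3.07 FPKM in parental libraries and 4.67, 3.99 and 5.57 in labelled knockout libraries, without overlap. That was 1.70-fold higher (log2 change 0.60, SE 0.13, adjusted p = 0.00311). The call was lost with the GC and length correction (0.25, adjusted p = 0.0582). Parental was above vector (0.43, SE 0.10, adjusted p = 0.00343, and 0.85 with the correction).

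PDGFB, the B chain, which forms homodimers or pairs with the A chain, lies on chromosome 22 from 39223359 to 39244751 on the minus strand. It was at 5.40, 5.76 and 6.24 FPKM in vector libraries and 4.28, 3.38 and 3.95 in EGR1 libraries. It was the only member that fell with EGR1 overexpression, to 0.667 of vector (log2 change −0.48, SE 0.11, adjusted p = 0.011), and the call was lost without EGR1 replicate 2 (−0.41, adjusted p = 0.0535). In MHCC97H it was at 0.392, 0.690 and 0.632 FPKM in parental libraries and 0.245, 0.0860 and 0.230 in labelled knockout libraries, under the filter. Without that filter it was called lower in the labelled knockout libraries (−0.40, adjusted p = 0.0151). The parental level was 0.0986 of the vector level (−2.12, SE 0.11, adjusted p = 2.45e-07). The ratio of PDGFA to PDGFB was 0.289 to 0.533 in the 6 PLC/PRF5 libraries and 3.94 to 46.4 in the 6 MHCC97H libraries, where PDGFB was low. Of the PDGF receptors, PDGFRA was under 0.04 FPKM in all 12 libraries. PDGFRB was at 0.0956, 0.0987 and 0.0849 FPKM in vector libraries and 0.408, 0.717 and 0.636 in EGR1 libraries (log2 change 0.53, adjusted p = 0.0105 in the fit without the filter).

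FGF2 (basic fibroblast growth factor) lies on chromosome 4 from 122826708 to 122898236 on the plus strand. It was at 0.0471 to 0.257 FPKM in the 6 PLC/PRF5 libraries, at 3.64, 3.50 and 2.15 in parental and at 2.43, 2.52 and 1.64 in labelled knockout libraries. The parental libraries were above all vector libraries (log2 change 1.90, SE 0.15, adjusted p = 3.53e-06, and 4.14 with a pseudocount of 0.1), and FGF2 passed the filter there through the parental libraries alone. The MHCC97H groups overlapped, and the change of −0.35 was not called (95% interval −0.75 to 0.05, adjusted p = 0.109). It was called without parental replicate 3 (−0.53, adjusted p = 0.0165), and after the GC and length correction it turned and was called higher (0.34, adjusted p = 0.0264). The FGF2 transcript has 37.5% GC. FGF2 overlaps NUDT6 on the opposite strand over 9540 bases, and since it is not stated whether counting used strand, reads from the overlap cannot be told apart. NUDT6 was at 1.70 to 3.16 FPKM over the 12 libraries and was not called in any comparison. With the GC and length correction it was called lower with EGR1 overexpression (−0.46, adjusted p = 0.0137) and lower in parental than in vector libraries (−0.54, adjusted p = 0.0222).

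FGF19, on chromosome 11 from 69698232 to 69704642 on the minus strand, was at 0.0251, 0.140 and 0.0562 FPKM in vector libraries and at 0, 0.185 and 0.123 in EGR1 libraries. It was listed at 0 in all parental libraries and at 0, 0 and 0.0188 in labelled knockout libraries. It was not called in any comparison with or without the filter. Its receptor FGFR4 was nevertheless abundant, at 162 ± 2.68 FPKM in vector libraries, and fell to 109 ± 5.35 with EGR1 overexpression (log2 change −0.57, SE 0.08, adjusted p = 0.00199). KLB, the coreceptor that FGF19 needs, fell with it, from 3.00 ± 0.216 to 1.88 ± 0.0948 FPKM (−0.47, adjusted p = 0.00827), and was at 0.133 ± 0.0323 in parental libraries. In MHCC97H FGFR4 was higher in labelled knockout libraries, 48.4 ± 4.98 against 27.0 ± 1.67 FPKM (0.82, adjusted p = 0.00017, and 0.18 with adjusted p = 0.0362 after the GC and length correction). FGFR3 rose with EGR1 overexpression from 40.9 ± 1.90 to 52.5 ± 1.33 FPKM (0.35, adjusted p = 0.0116, reaching 0.0513 over the alternative fits). In MHCC97H FGFR3 was lower in labelled knockout libraries, 1.99 against 2.88 FPKM (−0.37, adjusted p = 0.0332, reaching 0.13 over the alternative fits). With the GC and length correction that change was −0.96 (adjusted p = 0.000349). FGFR1, a main receptor of FGF2, fell with EGR1 overexpression from 9.67 ± 0.439 to 7.59 ± 0.235 FPKM (−0.31, adjusted p = 0.0262). That call was lost when any of 5 of the 6 libraries was left out. FGFR1 was at 0.221 ± 0.0446 FPKM in MHCC97H parental libraries, the line with FGF2. FGFR2 was at or near 0 throughout. None of the 12 other FGF ligands listed reached the filter in any comparison.

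IGF1R, the receptor of IGF1 and IGF2, lies on chromosome 15 from 98648539 to 98964530 on the plus strand. It was at 0.915, 0.687 and 1.11 FPKM in vector libraries and 1.65, 1.35 and 1.63 in EGR1 libraries. It was at 4.32, 4.38 and 4.68 FPKM in parental libraries and 6.13, 5.27 and 5.13 in labelled knockout libraries. The 4 groups did not overlap, and MHCC97H was above PLC/PRF5, the opposite of AREG and EGFR. With EGR1 overexpression IGF1R was 1.71-fold higher (log2 change 0.42, SE 0.12, adjusted p = 0.0277, and 0.73 with a pseudocount of 0.1). The call was lost with quantile normalization (0.27, adjusted p = 0.125), with the GC and length correction (0.27, adjusted p = 0.0566), without the filter (adjusted p = 0.0516), and when any library but vector replicate 3 was left out (adjusted p 0.0507 to 0.0889). In the labelled knockout libraries the change of 0.25 was not called (95% interval 0.01 to 0.49, adjusted p = 0.0602). It was called with quantile normalization (0.33, adjusted p = 0.0182) and with the GC and length correction (0.22, adjusted p = 0.0313), while scaling to a common total lowered it to 0.12 (adjusted p = 0.372). It was also called without the intensity trend (adjusted p = 0.0477) and in 1 fit of all 12 libraries (adjusted p = 0.045). Parental was above vector 4.93-fold (1.53, SE 0.11, adjusted p = 1.86e-06). The insulin receptor INSR, its closest relative, was not called within either line, at 7.73 ± 1.16 FPKM in vector, 6.53 ± 0.103 in EGR1, 3.37 ± 0.0839 in parental and 4.14 ± 0.612 in labelled knockout libraries. With the GC and length correction INSR was called lower with EGR1 overexpression (−0.33, adjusted p = 0.0071) and higher in labelled knockout libraries (0.28, adjusted p = 0.0279). Of the ligands, IGF1 was under 0.02 FPKM in all libraries, and IGF2 was at 2.58 to 3.19 FPKM in PLC/PRF5 and under 0.2 in MHCC97H.

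**Figure D4:**
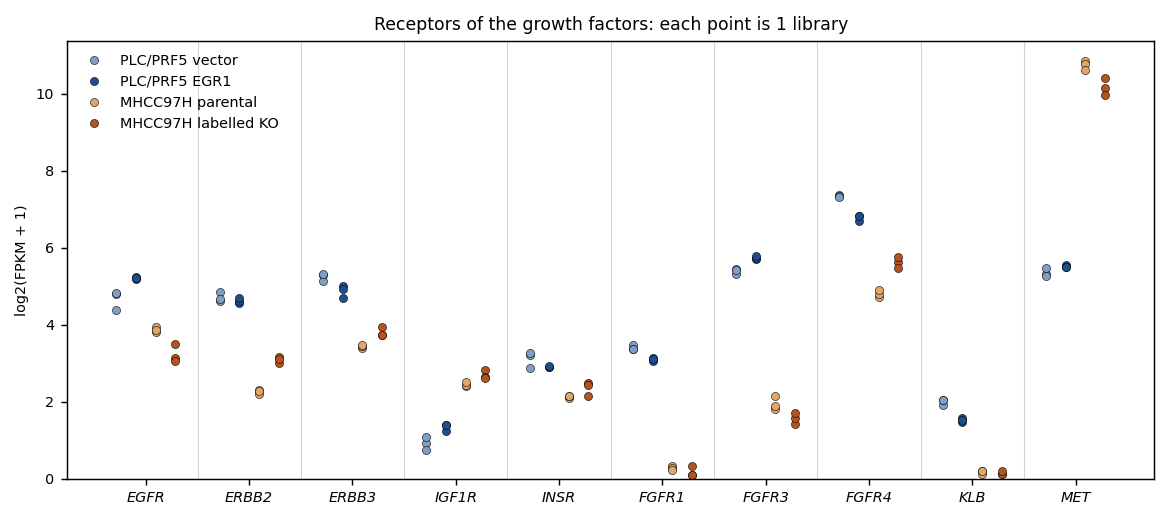
log2(FPKM + 1) of EGFR, IGF1R and other receptors of these growth factors, with 1 point for each library in the 4 groups. EGFR, ERBB2, ERBB3, INSR, FGFR1, FGFR3, FGFR4 and KLB were lower in MHCC97H parental than in PLC/PRF5 vector libraries, and IGF1R and MET were higher.

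IGF binding proteins, which hold IGFs in the medium and limit or prolong their access to IGF1R, held the largest rise of the wider signalling list in each comparison. IGFBP2 rose from 1.14 ± 0.246 to 16.7 ± 1.17 FPKM with EGR1 overexpression (log2 change 3.05, adjusted p = 1.92e-06) and was also higher in labelled knockout libraries, 225 ± 27.2 against 31.3 ± 2.84 FPKM (2.80, adjusted p = 7.58e-07). IGFBP1 rose from 261 ± 20.1 to 920 ± 87.8 FPKM with EGR1 overexpression (1.81, adjusted p = 2.76e-05). Of the 8 genes of this list 3 were tested in PLC/PRF5, with IGFBP1 and IGFBP2 higher and IGFBP3 lower, and 6 in MHCC97H, all called higher in labelled knockout libraries (5 of 6 with the GC and length correction). Over all genes tested, 19.2% were called higher and 10.4% lower in PLC/PRF5, and 34.8% higher in labelled knockout libraries (2644 of 10806 with the correction). IGFBP5 was at 0.112 FPKM in parental and 3.18 in labelled knockout libraries, and it passed the filter only through the latter.

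A list of 134 further genes of growth factor signalling, also chosen with earlier results known, was counted in the same way. With EGR1 overexpression 67 were tested, 13 called higher and 15 lower, with a median change of 0.05. Of all genes tested there, 19.2% were called higher and 10.4% lower. Beside IGFBP2 and IGFBP1, the largest rises were in USP8, a ubiquitin hydrolase that acts on endocytosed EGFR (0.69), ADAM9 (0.50) and PTPN11, the SHP2 phosphatase (0.48). The largest falls were in the receptor tyrosine kinase AXL (−0.76), VEGFB (−0.69), FGFR4, ADAM15 (−0.53) and EPHB4 (−0.52). With the GC and length correction the counts were 9 higher and 22 lower, beside 1777 higher and 1881 lower of all 10829 genes tested. PTPN11 was then at 0.27, and the calls of USP8 (0.23, adjusted p = 0.0581) and ADAM9 (0.25, adjusted p = 0.0626) were lost. ADAM9 was also not called without the filter on low values, or when any library but vector replicate 2 was left out. In the labelled knockout libraries 73 were tested, 28 called higher and 27 lower, with a median of 0.09. Of all genes tested there, 34.8% were called higher and 31.5% lower. Opposite calls with EGR1 overexpression and in the labelled knockout libraries were also found in this list. Among them were ADAM9, FGFR3, PTPN11 and USP8 (higher, then lower) and ADAM15, EPHB4, ERBB3, FGFR4 and VEGFB (lower, then higher). IGFBP1 and IGFBP2 were called higher in both. The largest rises were IGFBP2, IGFBP5 (1.90), STUB1 (1.46), VEGFB (1.27) and CSF1 (1.26), and falls included NRG1, ADAM9 (−1.09), PIK3CA (−0.88) and SOS2 (−0.86). IGFBP5 passed the filter only through the labelled knockout libraries. With the GC and length correction the call of PIK3CA was lost (−0.05, adjusted p = 0.704), and STUB1 (0.71), VEGFB (0.50), CSF1 (0.73), ADAM9 (−0.58) and SOS2 (−0.34) moved toward 0 but were still called. Of 14 tested inhibitors and turnover factors of the receptors, 9 were lower there, among them ERRFI1, which binds and inhibits EGFR, and of 13 tested receptor proximal adaptors 7 were lower, where 31.5% of all genes tested were called lower. With the correction these were 6 and 3, where 2489 of 10806 genes tested were called lower. Between the lines 76 were tested, 38 higher and 29 lower in parental MHCC97H, with a median of 0.23. Of all genes tested there, 38.8% were called higher and 40.9% lower. MET, the HGF receptor, was at 1721 ± 128 FPKM in parental and 40.1 ± 3.35 in vector libraries (5.39, adjusted p = 5.68e-10). MET was not called with EGR1 overexpression and was lower in labelled knockout libraries, at 1171 ± 183 FPKM (−0.56, adjusted p = 0.00456), which was not called with the GC and length correction (−0.14, adjusted p = 0.151). The other largest rises were IGFBP4 (6.06), NRG1 (5.03), KITLG (4.48) and IGFBP6 (4.08), and the largest falls IGFBP1 (−4.45), PROS1 (−4.05), FURIN (−3.48), FGFR3 (−3.44) and FGFR1 (−3.13). Among these IGFBP4, NRG1, KITLG and IGFBP6 passed the filter only through the parental libraries, and PROS1 and FGFR1 only through the vector libraries.

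The GC content and length of transcripts moved with these comparisons. A spline on both accounted for 17.9% of the variance of the changes over genes with EGR1 overexpression, 52.5% in the labelled knockout libraries and 7.61% between the lines. A correction for them takes out any change that tracks GC content, biological or technical, and these cannot be told apart. With the correction, 4 members were called higher and 1 lower with EGR1 overexpression, and 2 higher (FGF2 and IGF1R) and 3 lower in the labelled knockout libraries. Over all genes tested with it, 1777 of 10829 were called higher and 1881 lower with EGR1 overexpression. In the labelled knockout libraries 2644 of 10806 were called higher and 2489 lower. AREG went from 0.77 to 0.71 and from −0.52 to −0.51, and its transcript has 45.3% GC. Of the genes called with EGR1 overexpression 64.8% were higher, against 46.0% with quantile normalization and 48.6% with the GC and length correction. Both of these centre the changes by construction (median over all genes 0.0052 and 0.0027, beside 0.09), so a near even balance under them is no measurement. In the labelled knockout libraries 52.5% were higher, but 41.5% after scaling to a common total, which moved the median of all genes from 0.02 to −0.11.

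**Figure D5:**
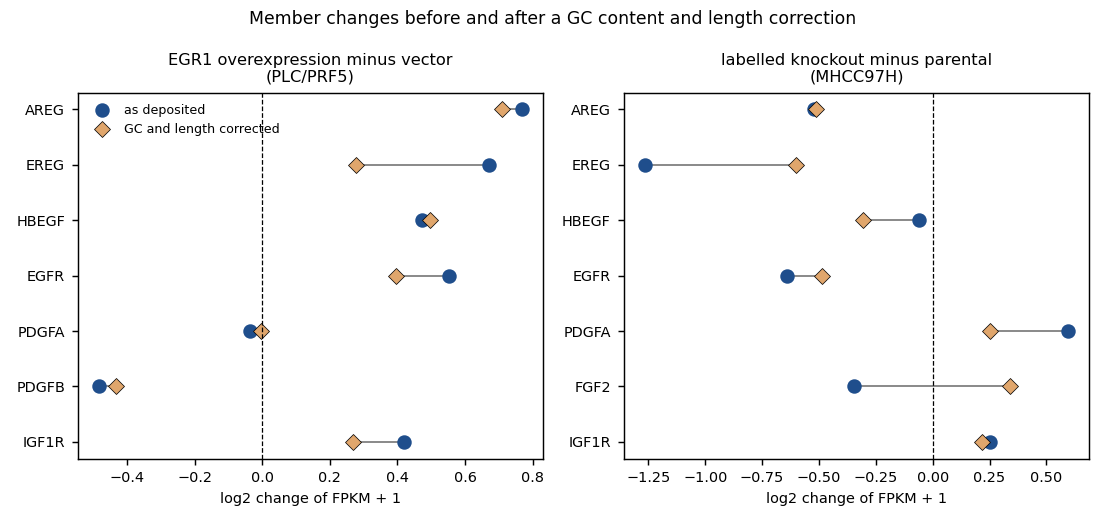
Difference of mean log2(FPKM + 1) for the members tested with EGR1 overexpression (left) and in the libraries labelled knockout (right), as deposited (circles) and after the GC content and length correction (diamonds). EREG moved toward 0 in both, FGF2 crossed 0 on the right, and AREG went from 0.77 to 0.71 on the left and from −0.52 to −0.51 on the right.

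For the 6 members tested in both lines, the gene of most like pattern over the 12 libraries, by Pearson's r of log2(FPKM + 1) among 12089 genes, was PIK3AP1 for AREG (r = 0.997), BIRC3 for EREG (0.994), ITGA2 for EGFR (0.992), RUNX1 for IGF1R (0.995), CTU1 for PDGFA (0.974) and EPC1 for HBEGF (0.941). The points share 2 cell lines and each library's scaling, so these values are descriptions.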

How the data were processed

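RNA of 12 libraries, 3 in each of 4 groups given by the labels, was selected with oligo(dT), treated with duplex-specific nuclease, which depletes abundant cDNA, and sequenced on a NovaSeq. The authors deposited FPKM per gene name, made with StringTie on hg38 according to the submitters' processing notes. The aligner, annotation and versions are not given in the sources used here. Whole reads could not be recovered from the FPKM, so depth and counting error are unknown, and no count test was used. Every value column belonged to a sample.

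FPKM were log2-transformed with a pseudocount of 1 and tested with limma 3.58.1 (intensity trend, 2-sided) in R 4.3.3 on the 6 libraries of each comparison, keeping genes whose mean FPKM was 1 or more, with Benjamini-Hochberg adjustment over all of them and a threshold of 0.05. An exact permutation test of 3 against 3 cannot go below 0.1. The labels call the replicates biological. They do not say whether replicate numbers pair the samples, and the main tests did not pair them. The members and lists were chosen with earlier results of these data known. The genes named were the 10 members, EGR1, NAB2, a fixed set of receptors with ADAM17, the 5 largest rises and falls of the signalling list past the threshold with groups that did not overlap, overlapping genes, and the most alike gene of each member. One gene that this rule names is not reported here. BTC, IGF1, IGF2, IGFBP3 and ERRFI1 were named beside them after their values were seen. The alternatives were a pseudocount of 0.1, no filter, scaling to a common total, quantile normalization, no trend, 1 fit of all 12 libraries, a replicate block, a GC content and length spline (5 degrees of freedom, 19458 names matched in GENCODE 29), stricter thresholds, and leaving out each library. The script was first tested on simulated data. Motifs were searched in RefSeq windows of GRCh38.p14. Plots were drawn with matplotlib 3.10.9.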

Additional observations from a re-analysis of the deposited data

How the results depend on the processing

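Over all alternative settings for single members, 324 values kept direction and call, 29 lost the call, 11 gained it and 9 changed sign. These include the stricter thresholds on the main fit, which can only keep or lose a call. With EGR1 overexpression the 6 called members became 2 at an adjusted p under 0.01 and 0 at a change of at least 2-fold, and 3 to 6 when 1 library was left out, the 3 without EGR1 replicate 2. In the labelled knockout libraries the 4 became 1 at 2-fold, and leaving out libraries gave 4 to 5. Between the lines leaving out libraries gave 6 to 7. The signalling list count with EGR1 overexpression, 28, became 14 at 0.01 and 2 at 2-fold, and 14 to 28 when 1 library was left out (16 without vector replicate 1, 17 without vector replicate 3, 16 without EGR1 replicate 2 and 14 without EGR1 replicate 3). At 2-fold the list counts of 55 and 67 in the other comparisons became 9 and 41. Stricter thresholds call fewer genes by construction, and the cause of the other changes was not tested.

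Signs changed for values near 0 or under the GC and length correction, with or without the replicate block. When 1 library was left out, PDGFA with EGR1 overexpression ranged from −0.172 to 0.039 (above 0 without vector replicate 3, EGR1 replicate 2 or EGR1 replicate 3). In the labelled knockout libraries HBEGF ranged from −0.137 to 0.0408 (above 0 without labelled knockout replicate 3) and NAB2 from −0.0757 to 0.0441 (above 0 without parental replicate 3). Between the lines NUDT6 ranged from −0.219 to 0.0515 (above 0 without parental replicate 1). Quantile normalization turned HBEGF in the labelled knockout libraries (0.061). The correction turned FGF2 (0.34), ADAM17 (0.20) and NUDT6 (0.27) there, HBEGF between the lines (0.24) and MET with EGR1 overexpression (−0.0591).

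With the replicate number as a replicate block, 6, 5 and 6 members were called in the 3 comparisons. Among members the block alone changed 1 call, FGF2 in the labelled knockout libraries (−0.35, adjusted p = 0.0211). Whether samples of the same number belong together is not given. Residuals of same-numbered libraries correlated between −0.132 and 0.136 in PLC/PRF5 and between 0.0302 and 0.467 in MHCC97H. Between the lines these values ran from −0.393 to −0.00823. The unknown depth limits FGF19, TGFA and FGF2 in PLC/PRF5 and PDGFB in MHCC97H, all under 1 FPKM.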
